A study of Glycine max with 2 samples.

Results

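The 1000 chromatin peaks described here were chosen for a high ratio of openness in soybean seed nuclei called TT8-positive over all other nuclei. They come from 119743 peaks called over the whole library. A nucleus was called TT8-positive when its TT8 transcripts (Glyma.02G147800 and Glyma.10G026000 together) reached at least 3 UMIs (unique molecular identifiers, which count captured RNA molecules) and 15 per 10000 UMIs, and outnumbered those of BAN (Glyma.08G062000). This gave 967 of 8636 nuclei. Peaks were chosen on nuclei with odd-numbered barcodes only, 495 TT8-positive and 3823 other. In each set, fragments overlapping a peak were summed and scaled to 1000000 peak fragments (FPM), and the ratio of TT8-positive over other nuclei was taken after adding 1 to both. The 1000 peaks with the highest ratio were taken from the 77493 with at least 200 fragments in all nuclei. Nuclei with even-numbered barcodes, 472 TT8-positive and 3846 other, took no part in the ranking, and unless stated otherwise all values below come from them.

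The nuclei came from pooled cotyledon-stage seeds of the cultivar Williams 82, with no treatment, and the same droplets gave 1 library of nuclear RNA and 1 of accessible chromatin (ATAC). Odd- and even-numbered barcodes are therefore the same library, no result has a replicate, and no p-value was computed. Intervals are 95% intervals (exact binomial for shares, and exact binomial conditional on the summed fragments for ratios), and they cover counting error only. Neither nuclei nor peaks are replicates. No doublets were removed, and nuclei with transcripts of more than 1 cell class were left out of the comparison of classes.

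TT8 is a basic helix-loop-helix transcription factor that, in Arabidopsis, works with a MYB and a WD40 protein to switch on late flavonoid genes in the seed coat. One of these genes, BAN, encodes anthocyanidin reductase, which makes the precursors of proanthocyanidins (condensed tannins). In soybean, as in Arabidopsis, seed coat color depends on flavonoids that accumulate in the seed coat. ATAC reads DNA that the transposase Tn5 can reach, which is mostly DNA free of nucleosomes at promoters and other regulatory sequences. Each fragment has 2 ends, and each end is a cut site of the enzyme. A diploid nucleus holds few copies of a locus, so that a single nucleus gives few fragments per peak and levels are sums over many nuclei.

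The TT8-positive nuclei carried the transcripts of seed coat epidermis. All 15 epidermis markers were at least 2 times higher in them than in the other nuclei, with ratios from 4.13 to 13.4 (median of 9.39), and their summed level was 4465 against 484 per 1000000 UMIs (CPM). All 15 outer integument markers, 6 embryo markers, 4 endosperm markers and 2 SWEET13 genes, which encode sugar transporters that mark vasculature here, were at or below 0.5 times the level of the other nuclei. No marker was at 0. These lists were drawn up by the study from the same nuclei and describe the group rather than support its name. BAN itself was near equal, at 998.7 CPM in TT8-positive and 1071 CPM in other nuclei. The rule kept nuclei with BAN at or above TT8 out of the group, and the part of this condition in the BAN level was not tested. TT8-positive nuclei held a median of 10 TT8 UMIs (range of 3 to 285), and 366 of the 967 had no BAN UMI.

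Sequencing depth was close in both groups. The median TT8-positive nucleus had 2977 UMIs and 8475 fragments, and the median other nucleus 2941 UMIs and 7682 fragments. Of the fragments, 80.2% and 78.9% lay in peaks. Fragments in nuclei ranged from 129 to 294125 per nucleus, and 16.4% of TT8-positive and 27.1% of other nuclei had fewer than 3000.

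In the odd-numbered nuclei that chose them, the peaks had ratios from 2.71 to 6.88 (median of 3.19), which is a description of the choice. The limit fell in a continuous distribution. The last 2 peaks inside it had choosing ratios of 2.7070 and 2.7068 and held-out ratios of 2.95 and 2.61. The first 2 outside it had choosing ratios of 2.7065 and 2.7064 and held-out ratios of 2.71 and 2.54. The peaks on both sides of the limit were thus alike.

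In the even-numbered nuclei, the chosen peaks were again more open in the TT8-positive group. The ratio was at least 2 in 988 of the 1000 peaks, against 3.51% of all 77493 peaks with enough fragments, and at least 3 in 634, against 0.912%. It lay below 1 in 0 of the 1000. The median was 3.20, with an interquartile range of 2.80 to 3.74, and the median over all peaks with enough fragments was 0.889. Without the added 1, the 95% interval of the ratio lay above 1 in all 1000 peaks and above 2 in 935. No share over all peaks was computed for these intervals. Most of all peaks with enough fragments had a ratio below 1, since their median was 0.889. The pooled ratio over the set was 3.56 (3.54 to 3.59): the chosen peaks took 2.72% of all peak fragments in TT8-positive nuclei (163308 fragments) and 0.762% in other nuclei (296146 fragments). TT8-positive nuclei supplied 13.4% of all peak fragments and 35.5% of those in the chosen peaks.

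**Figure D1:**
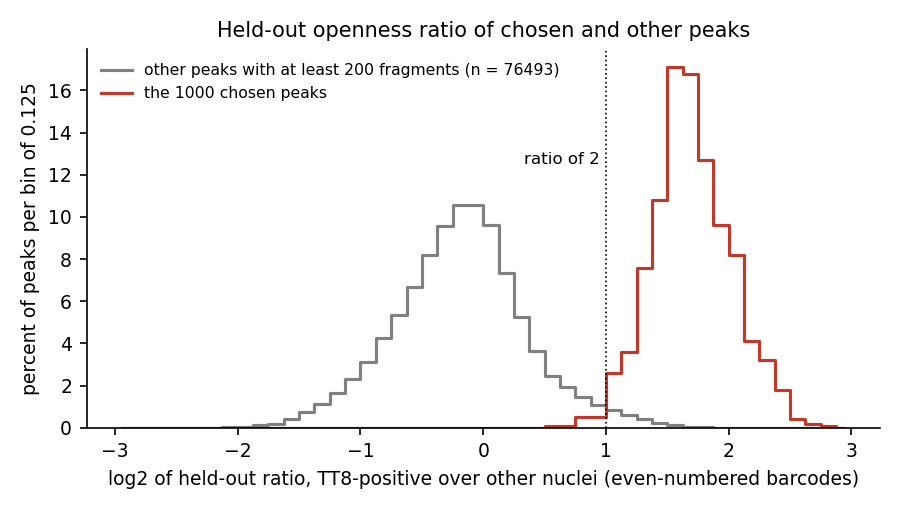
Distribution of the held-out ratio, on a log2 axis, for the 1000 chosen peaks (red) and the 76493 other peaks with at least 200 fragments (grey), each as the percent of its own set per bin. The chosen peaks are centered near a ratio of 3.20 and the others near 0.884, and the distributions cross close to the dotted line at a ratio of 2, below which 12 chosen peaks lie.

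The held-out ratio followed the choosing ratio. The median held-out ratio was 4.57 for the first 100 peaks, 3.69 for the next 200 and 3.00 for the last 700, against choosing medians of 4.79, 3.90 and 3.01. The medians lay below those of the choice by more in the first 300 peaks than in the rest, and 425 of the 1000 peaks had a higher ratio in the even-numbered than in the odd-numbered nuclei. Peaks beyond the limit formed a tail of the same kind: the median was 2.36 over the next 1000 in rank, of which 83.1% were at 2 or more, and 1.80 over the 3000 after those, of which 26.6% were. Across the 1000 peaks, Spearman's rho between both ratios was 0.69, and both sets of nuclei share 1 library and its peaks.

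The 10 peaks with the highest choosing ratio were 861 to 4222 bases wide, held 354 to 1932 fragments over all nuclei and had 2.88 to 13.3 FPM in other nuclei. Coordinates are those of the Wm82.a2.v1 assembly, and genes near the peaks were not analysed here. The first peak, chr13:31394954-31396690 (1737 bases), had 137 fragments in TT8-positive and 114 in other nuclei, or 22.8 against 2.93 FPM, a plain ratio of 7.77 (6.01 to 10.05). The second, chr20:1118285-1119869 (1585 bases), had 38.4 against 4.94 FPM (7.78, interval of 6.39 to 9.47). The peak at rank 5, chr12:8025457-8026460 (1004 bases), had the highest held-out ratio of all chosen peaks, with 161 fragments in TT8-positive and 115 in other nuclei, or 26.8 against 2.96 FPM (9.05, interval of 7.08 to 11.6). In each of these, 472 TT8-positive nuclei gave more fragments than 3846 other nuclei.

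Among the 10 peaks with the highest choosing ratio, the deepest were chr6:49565162-49569383 (4222 bases) and chr11:11022652-11025258 (2607 bases). The first had 477 fragments in TT8-positive and 516 in other nuclei, 79.3 against 13.3 FPM (5.98, interval of 5.26 to 6.78). The second had 359 and 336 fragments, 59.7 against 8.64 FPM (6.91, interval of 5.93 to 8.04). The lowest of the 10 was chr17:32178610-32179470 (861 bases), with 13.6 against 2.88 FPM (4.73, interval of 3.52 to 6.35). The other 4 peaks of the 10 lay on chromosomes 18, 9, 15 and 9, with plain ratios of 5.86, 6.08, 7.24 and 6.12. Of the 45 pairs among the 10 peaks, only 3 had intervals that did not overlap, so their order is mostly not resolved at this depth.

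The 5 peaks with the most fragments were wide regions with lower ratios that were also open elsewhere. The largest, chr13:38814258-38833474, spanned 19217 bases, held 15059 fragments in all and ranked 780. It had 397 FPM in TT8-positive and 136 in other nuclei (2.91, interval of 2.77 to 3.06). The other 4 were chr17:12519956-12528655, chr10:2266007-2274022, chr8:283390-289218 and chr2:1895481-1905113, of 5829 to 9633 bases. Their plain ratios were 2.97, 2.76, 3.37 and 3.27, on levels of 127 to 156 FPM in TT8-positive and 40.8 to 52.4 in other nuclei. Their intervals were narrow, and that of the largest peak did not overlap with those of any of the 10 peaks above. At the other end, the lowest held-out ratio belonged to chr5:1998944-1999976, with 39 and 153 fragments and 6.48 against 3.94 FPM (1.65, interval of 1.13 to 2.36).

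To learn in which other nuclei the chosen peaks were open, even-numbered nuclei were sorted into classes by their transcripts, with the same limits of 3 UMIs and 15 per 10000. The classes were BAN (at or above TT8), SCS1 (an outer integument gene, Glyma.06G022600), 3 endosperm genes, 6 embryo genes and the SWEET13 pair, and nuclei of more than 1 class were left out. The chosen peaks took 2.75% of the peak fragments of TT8 nuclei (n = 452), 1.43% of those of BAN nuclei (n = 507), 0.700% of embryo nuclei (n = 232), 0.606% of SWEET13 nuclei (n = 62), 0.580% of SCS1 nuclei (n = 308) and 0.567% of endosperm nuclei (n = 469). Nuclei of no class (n = 2167) were at 0.751%. The counting intervals of SWEET13, 0.585% to 0.626%, and SCS1, 0.572% to 0.588%, overlapped, and those of the other neighbors in this order did not, although SCS1 and endosperm nuclei were nearly level. The median nucleus stood at 3.15% in the TT8 class, 0.719% in BAN, 0.571% in embryo, 0.493% in SCS1, 0.485% in SWEET13, 0.475% in endosperm and 0.599% in no class. The chosen peaks were thus most open in TT8 nuclei by both measures, and the pooled level of BAN nuclei lay in between while their median nucleus was close to the other classes.

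The same held peak by peak. The TT8 class had the highest level of the 6 classes in 984 of the 1000 peaks, and BAN was second in 852 of these. The TT8 class was the highest in 13.1% of all peaks with enough fragments. Of the remaining 16 peaks, 9 were highest in BAN, 6 in SWEET13 and 1 in embryo nuclei. These classes were the highest in 7.27%, 21.1% and 18.4% of all peaks with enough fragments. The TT8 level was at least 2 times that of every other class in 415 peaks, and its median over the highest other class was 1.89. For the 852 and the 415 peaks, the matching share over all peaks was not computed.

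Set against the other nuclei without the TT8-positive ones, BAN nuclei had a ratio of at least 2 in 452 of the chosen peaks, against 1.56% of all peaks with enough fragments, and at or below 0.5 in 0, against 2.25%. Their median ratio over the chosen peaks was 1.95. In the other classes few chosen peaks were at 2 or more, and more were at or below 0.5. SCS1 nuclei had 2 chosen peaks at 2 or more (1.99% of all peaks) and 112 at or below 0.5 (3.6%), and endosperm nuclei 2 (4.21%) and 120 (6.03%). Embryo nuclei had 22 (4.22%) and 109 (8.62%), and SWEET13 nuclei 36 (6.15%) and 335 (21.2%). The medians over the chosen peaks were 0.742, 0.716, 0.804 and 0.719. Chosen peaks at or below 0.5 were thus more frequent than the background in these 4 classes, and those at 2 or more less frequent. The counts of the SWEET13 class rest on few fragments per peak. Its 62 nuclei held 547407 peak fragments, with a median of 3.65 FPM over the chosen peaks. Pooled over these peaks, its ratio was 0.791, against 0.743 in SCS1 nuclei. The nuclei they were set against include the BAN nuclei and those with TT8 below the limit.

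BAN nuclei were the shallowest class on the chromatin side, with a median of 2491 fragments against 8600.5 in TT8 nuclei, and 51.9% of them had fewer than 3000. Their share of fragments in the chosen peaks was 0.710% in 263 nuclei with fewer than 3000 fragments, 2.28% in 119 with 3000 to 10000 and 1.32% in 125 with more. The median nucleus stood at 0.351%, 1.43% and 1.03% in these bins, so that it lay above the medians of the non-TT8 classes from 3000 fragments upwards. Among BAN nuclei with at least 3000 fragments, the pooled share was 0.977% in the 14 without a TT8 UMI and 0.723% in 27 with up to 5 TT8 UMIs per 10000. It was 1.28% in 92 with 5 to 15 and 1.75% in 111 with 15 and over. From up to 5 TT8 UMIs per 10000 upwards the share was larger with more TT8, although TT8 did not exceed BAN in any of these nuclei, and the 14 nuclei without a TT8 UMI stood above the next bin. The part that depth plays in the lower level of BAN nuclei was not tested.

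Among the named peaks, the class levels separated 2 patterns. In the first peak on chromosome 13, TT8 nuclei had 23.4 FPM, BAN nuclei 8.68, SCS1 nuclei 2.56, endosperm nuclei 1.40 and embryo nuclei 1.33, with 0 fragments in the 62 SWEET13 nuclei. The second peak, on chromosome 20, had 39.1 FPM in TT8 nuclei, 15.5 in BAN nuclei and 4.19 or less in each other class. In contrast, the 19217-base region on chromosome 13 had 403 FPM in TT8 nuclei and 383 in embryo nuclei, from 2337 and 1151 fragments, with 220 in BAN nuclei and 73.6 in endosperm nuclei. The region on chromosome 2 had 135 FPM in TT8 nuclei, 71.8 in BAN nuclei, 48.0 in SCS1 nuclei and 20.0 in embryo nuclei. Embryo nuclei were second in 2 of the 5 deepest regions and BAN nuclei in the other 3, while BAN nuclei were second in 9 of the 10 peaks with the highest choosing ratio.

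**Figure D2:**
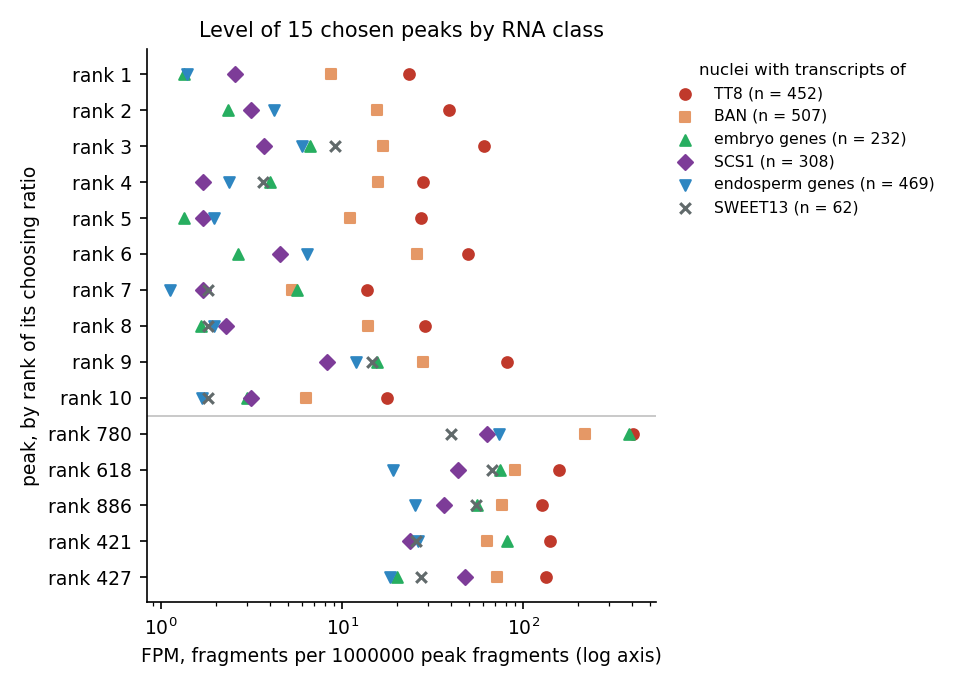
Level in fragments per 1000000 peak fragments (FPM), on a log axis, in even-numbered nuclei of 6 RNA classes, for the 10 peaks with the highest choosing ratio (above the line) and the 5 with the most fragments (below it). TT8 nuclei are highest in each, and embryo nuclei come close only in the peak at rank 780, at 383 against 403; SWEET13 nuclei with 0 fragments are not drawn.

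The openness of the chosen peaks also followed the amount of TT8 transcript. In even-numbered nuclei with at least 2000 UMIs, the share of peak fragments in the chosen peaks was 0.574% with no TT8 UMI (n = 1873), 0.756% with up to 5 per 10000 (n = 447), 1.32% with 5 to 15 (n = 300), 2.01% with 15 to 30 (n = 264) and 2.98% with 30 and over (n = 200). The counting intervals of these 5 bins did not overlap, but they cover fragments and not the spread between nuclei. The median nucleus stood at 0.537%, 0.558%, 0.972%, 2.04% and 3.21%. At the median nucleus the first 2 bins were thus nearly level, with interquartile ranges of 0.437% to 0.668% and 0.431% to 0.814%. The first 3 bins lie below the TT8 limit of the group and hold no TT8-positive nuclei. Among nuclei without a BAN UMI the same bins stood at 0.573%, 0.744%, 1.37%, 2.11% and 3.42%, and among nuclei with at least 3000 fragments at 0.575%, 0.760%, 1.33%, 2.01% and 2.98%. The order was thus the same without BAN transcripts and without shallow nuclei.

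**Figure D3:**
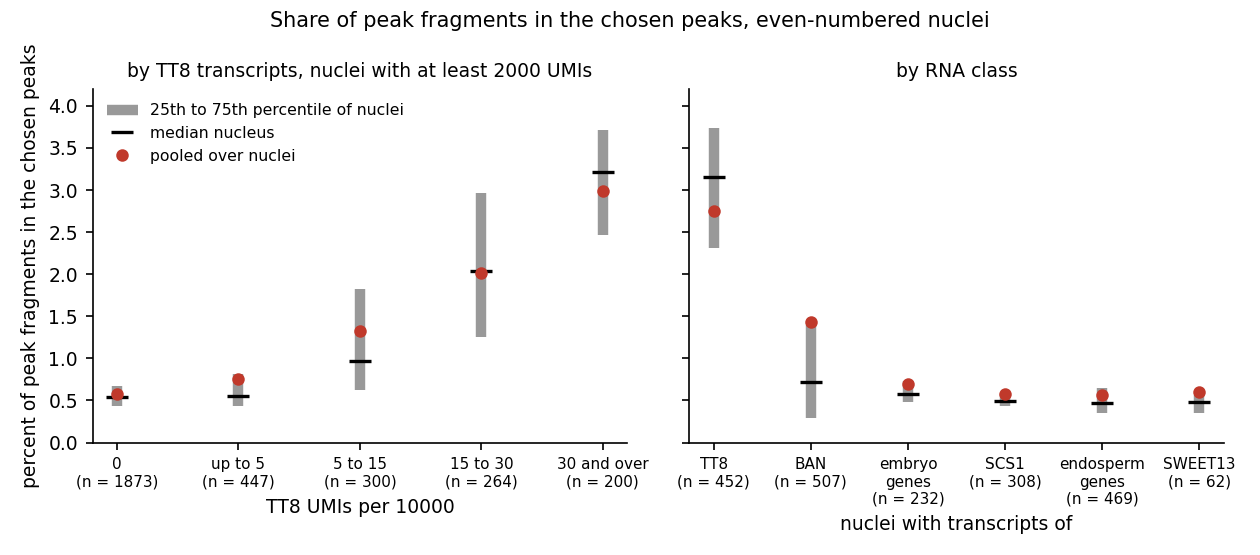
Percent of peak fragments that fall in the chosen peaks, in even-numbered nuclei, by TT8 UMIs per 10000 (left, nuclei with at least 2000 UMIs) and by RNA class (right). Red points pool all nuclei of a bin, black marks are the median nucleus and grey bars the 25th to 75th percentile. The pooled share goes from 0.574% to 2.98% across the TT8 bins. Of the classes only BAN, at 1.43%, lies between TT8 nuclei and the rest, with its median nucleus at 0.719% over all depths, shallow nuclei included.

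Single nuclei showed a wide spread around these shares. Among even-numbered nuclei with at least 1000 peak fragments, the share in the chosen peaks was 0.358% at the lowest, 3.14% at the median and 5.37% at the highest in 442 TT8-positive nuclei. In the 3199 other nuclei it was 0%, 0.585% and 4.75%. The groups overlapped at both ends. Only 4 TT8-positive nuclei fell below the median of the other nuclei, and 168 other nuclei (5.25%) reached the 25th percentile of the TT8-positive group, 2.24%.

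These 168 nuclei outside the group were rich in TT8 and epidermis transcripts. Of them, 88.7% had at least 1 TT8 UMI and 57.1% at least 3, at a median of 2179.5 UMIs, and 84 met the limits for BAN at or above TT8. Of all other nuclei, 27.6% had a TT8 UMI (median of 3183 UMIs), and of endosperm-class nuclei, a class in which TT8 is not expected, 14.2% had one (median of 5568 UMIs). Summed TT8 stood at 17.3 per 10000 in the 168 nuclei, 3.82 in all other nuclei and 0.694 in the endosperm class, and the 15 epidermis markers at 40.1, 4.92 and 1.66. Nuclei in which the chosen peaks were open without passing the TT8 rule thus mostly carried TT8 transcripts below its limits or with BAN at or above TT8.

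**Figure D4:**
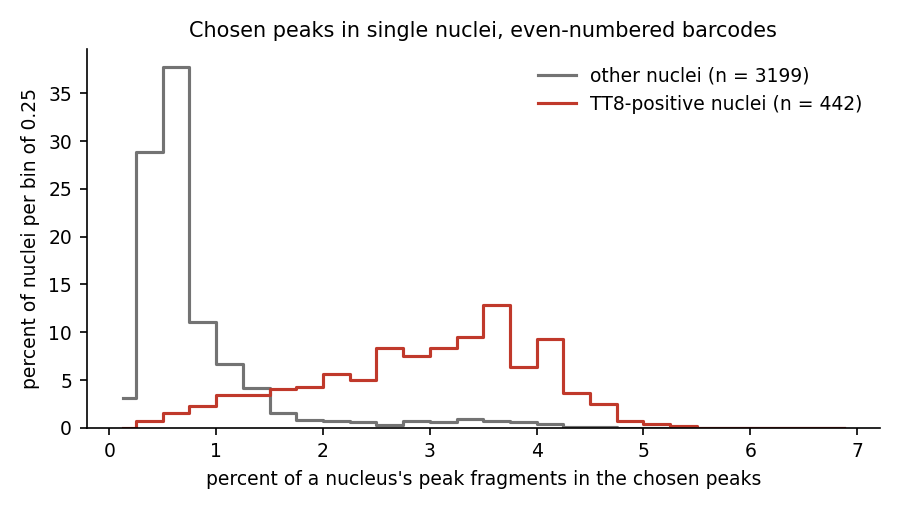
Percent of the peak fragments of a nucleus that fall in the chosen peaks, for 442 TT8-positive (red) and 3199 other (grey) even-numbered nuclei with at least 1000 peak fragments, each as the percent of its own set per bin. Other nuclei are gathered near 0.585% with a low shoulder up to 4.75%, and TT8-positive nuclei spread from 0.358% to 5.37% around 3.14%.

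Within the TT8-positive group, depth and markers moved with the share. It was 3.23% in 64 nuclei with fewer than 3000 fragments, 3.33% in 200 with 3000 to 10000 and 2.57% in 208 with more. By RNA depth it was 3.54% in 120 nuclei under 2000 UMIs, 3.05% in 199 with 2000 to 5000 and 2.44% in 153 with 5000 and over. The deepest TT8-positive nuclei were therefore those with the lowest share, and the part of depth or of merged nuclei in this was not tested. By the summed epidermis markers, in group nuclei with at least 2000 UMIs, it was 1.79% below 15 per 10000 (n = 39), 1.96% at 15 to 30 (n = 62), 2.65% at 30 to 60 (n = 154) and 3.19% at 60 and over (n = 97). Nuclei of the group with and without a BAN UMI were close, at 2.76% (n = 299) and 2.61% (n = 173). Their order was reversed at the median nucleus, at 3.10% and 3.17%. These 2 sets differed in depth, with medians of 3669 and 2621 UMIs.

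Epidermis markers outside the group separated with TT8. In nuclei outside the group with at least 2000 UMIs and at least 1 TT8 UMI, the share in the chosen peaks was 0.606% with no epidermis marker UMI (n = 261), 0.748% with up to 5 per 10000 (n = 237), 1.12% with 5 to 15 (n = 169) and 1.85% with 15 and over (n = 192). In those without a TT8 UMI it was 0.546% (n = 1266), 0.605% (n = 455), 0.693% (n = 139) and 0.899% (n = 13). The share was larger with more epidermis marker transcripts in both sets, and larger in each marker bin where TT8 was seen. In order of marker bin, median UMIs were 3314, 6297, 5931 and 4543.5 with a TT8 UMI, and 3676, 4503, 3470 and 2571 without. The part of this depth in seeing TT8 was not tested. Nuclei with TT8 past the limit but BAN at or above it are among those with a TT8 UMI. Nuclei rich in epidermis markers without a TT8 UMI were few.

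The transcripts that accompany open chosen peaks can be read gene by gene. For each gene of the flavonoid, epidermal and cuticle lists, nuclei outside the group with at least 2000 UMIs and at least 2 UMIs of the gene were compared with those with none. Of 26027 genes with at least 100 UMIs in even-numbered nuclei, 5.36% were at least 2 times higher in TT8-positive than in other nuclei. A further 16% were at or below 0.5 times. The gene counts below stand beside these shares. The lists were set with earlier results of these data known, so the counts describe the group and do not test it. All 6 flavonoid regulator genes were higher by at least 2 times, TT8 itself by the choice of the group, and nuclei outside the group that carried them had 2.01 to 2.27 times the share of fragments in the chosen peaks. TTG2 (Glyma.03G176600), a WRKY factor of tannin and trichome development in Arabidopsis, was at 1495 against 196 CPM (7.61, interval of 7.27 to 7.97), and the 391 nuclei outside the group that carried it had 1.33% against 0.587% of fragments in the chosen peaks. MYB5 (Glyma.17G143600), a MYB factor of seed coat and trichomes in Arabidopsis, was at 387 against 72.5 CPM (5.33, interval of 4.91 to 5.80), with 1.37% against 0.668%. Regulators of the pathway and open chosen peaks thus went together outside the group too, where nuclei with TT8 past the limit but BAN at or above it are included. Most of these nuclei also carried TT8, 89.0% for this TTG2 gene.

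Of 13 flavonoid enzyme genes, 6 were at least 2 times higher in TT8-positive nuclei and 1 was at or below 0.5. The former included a PAL2 gene (Glyma.10G209800), which encodes the entry enzyme of phenylpropanoid synthesis, at 416 against 54.3 CPM (7.65, interval of 7.0 to 8.35). F3'H (Glyma.06G202300), the hydroxylase of the flavonoid B ring, was at 2701 against 731 CPM (3.69, interval of 3.59 to 3.80). ANS (Glyma.11G027700), anthocyanidin synthase, which acts late like BAN, was near equal at 452 against 414 CPM. CHI (Glyma.20G241700), chalcone isomerase, an early enzyme, was lower at 113 against 225 CPM (0.501, interval of 0.444 to 0.564). DFR genes, which encode dihydroflavonol reductase, went both ways. Glyma.14G072700 and Glyma.17G252200 were among the 6 higher genes, at 1220 against 554 CPM and 697 against 205 CPM. The DFR gene Glyma.02G158700 was the gene at or below 0.5, at 22.3 against 80.6 CPM (0.276, interval of 0.209 to 0.358). Nuclei outside the group that carried Glyma.02G158700 had a share of 0.717% against 0.756% in the chosen peaks. For the other 12 enzyme genes the ratio of shares lay above 1. TT12 (Glyma.14G032400) and AHA10 (Glyma.03G262600), a vacuolar flavonoid transporter and a proton pump needed for tannin in Arabidopsis, were 3.42 and 5.47 times higher in TT8-positive nuclei, with ratios of shares of 1.95 and 2.11.

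Epidermal and cuticle genes followed the same course. Of 10 epidermal and seed coat regulators, 9 were at least 2 times higher in TT8-positive nuclei, and AG (Glyma.08G120600), a MADS-box floral organ gene, was lower at 9.81 against 73.7 CPM. KNAT2 (Glyma.15G257800), a homeobox gene, was at 318 against 35.3 CPM (9.03, interval of 8.12 to 10.03), and the 123 nuclei outside the group that carried it had 1.52% against 0.633% in the chosen peaks. All 5 cuticle genes were higher by at least 2 times, led by CER1 (Glyma.03G101700), an enzyme of wax alkane synthesis, at 666 against 55.8 CPM (11.9, interval of 11 to 12.9). The 134 nuclei outside the group with CER1 had 1.63% against 0.642% in the chosen peaks, a ratio of 2.54 (2.52 to 2.57), the highest of the 36 genes. Carriers of SCS1 and of ZOU (Glyma.02G103200), an endosperm transcription factor, had ratios of 0.811 and 0.678. Of the 36 genes, 7 are also among the 15 epidermis markers.

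When nuclei with any TT8 UMI were left out, these differences shrank. Of the nuclei outside the group with 2 or more UMIs of HDG2 (Glyma.06G303700), an epidermal homeodomain gene, 51.8% carried TT8. The 171 that did not had 0.729% of fragments in the chosen peaks, against 0.543% of nuclei with neither transcript. The 183 of the other HDG2 gene (Glyma.12G100100) had 0.711% against 0.543%. The 39 with LACS2 (Glyma.12G047400), an acyl-CoA synthetase of cutin synthesis, had 0.790% against 0.557%, and the 19 with CER1 had 1.05% against 0.570%. In contrast, the 84 with BAN had 0.605% against 0.573%, and the 82 with ANS (Glyma.11G027700) 0.571% against 0.573%. Over each list, counting genes with at least 10 such nuclei, the ratio of shares between carriers and non-carriers without TT8 had a median of 1.5 for 4 cuticle genes (1.42 to 1.84), 1.05 for 8 epidermal regulators (0.939 to 1.34, with 1 below 1), 1.02 for 13 flavonoid enzymes (0.921 to 1.51, with 6 below 1), 1.11 for the 2 TTG2 genes (1.05 to 1.16) and 0.877 for the 2 transport genes. The lists overlapped, and a PAL2 gene (Glyma.10G209800) was as high as the cuticle genes, at 0.856% in 16 nuclei against 0.568%. The differences between genes and lists were not tested.

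The chosen peaks were ordinary in size and depth. Their widths ranged from 492 to 19217 bases with a median of 1706.5, against 1709 in all peaks with enough fragments. They held 200 to 15059 fragments over all nuclei, with a median of 652.5 against 660. Fragments in the chosen peaks were as short as elsewhere: 51.1% were under 120 bases in TT8-positive nuclei, against 51.0% in other peaks of the same nuclei. In other nuclei the shares were 49.7% and 51.6%. The ratio of TT8-positive over other nuclei, relative to all peaks with enough fragments, was 3.68 (3.65 to 3.72) for fragments under 120 bases, 3.37 (3.33 to 3.41) for those of 150 to 300 bases, which can span 1 nucleosome, and 3.04 (2.99 to 3.10) for those of 300 bases and over. Short fragments thus carried the larger difference, but all lengths carried it.

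The difference was largest within 500 bases of the summit and reached beyond it. Summits were set at the highest density of cut sites in odd-numbered nuclei of both groups. Within 150 bases of the summit, the chosen peaks on chromosomes had 5.19 cut sites per 100 bases and peak, per 1000000 peak fragments, in TT8-positive nuclei and 1.37 in other nuclei, a ratio of 3.78 (3.75 to 3.81). The ratio was 3.86 (3.83 to 3.89) at 150 to 500 bases, 3.12 (3.09 to 3.15) at 500 to 1000 and 2.37 (2.35 to 2.39) at 1000 to 2000. In other peaks with enough fragments it was 1.02, 0.97, 0.94 and 0.94. At the summit the chosen peaks were more open than the average of the other peaks in TT8-positive nuclei, at 5.19 against 2.54, and less open in other nuclei, at 1.37 against 2.48. Ranking by the ratio of these levels favors both differences, so they describe the choice. The averages also weigh deep peaks more, whereas the median fragments per peak were 652.5 in the chosen peaks and 660 in all peaks with enough fragments.

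**Figure D5:**
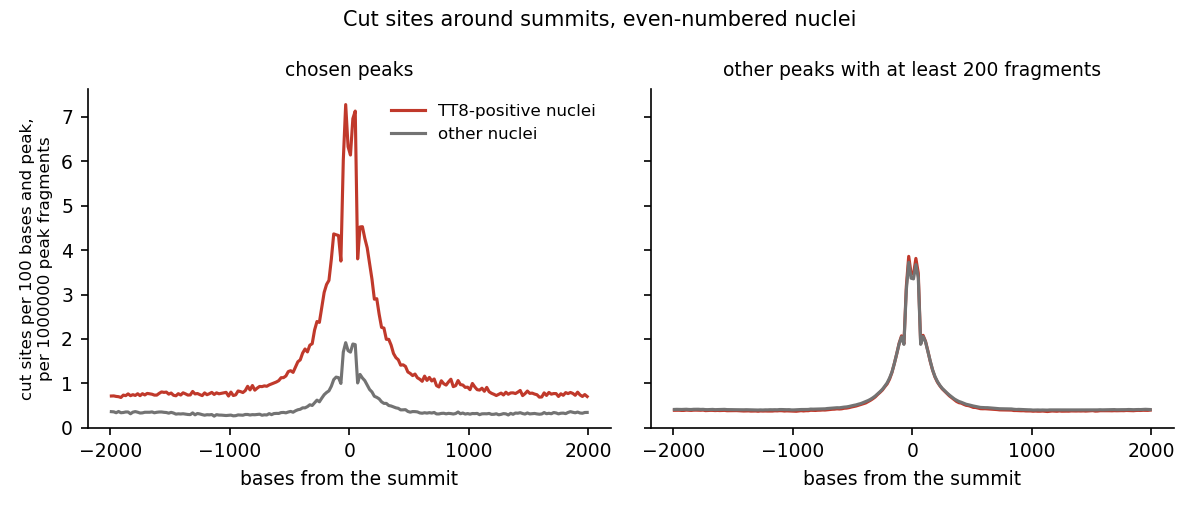
Cut sites per 100 bases and peak, per 1000000 peak fragments, against the distance in bases from the summit, in even-numbered TT8-positive (red) and other (grey) nuclei. In the chosen peaks (left) the red line averages 5.19 within 150 bases of the summit against 1.37 for the grey line and stays above it out to 2000 bases; in the other peaks (right) both lines lie together, at 2.54 and 2.48.

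The chosen peaks lay on all 20 chromosomes. Their share of the peaks with enough fragments was 1.29% in all and went from 0.791% on chromosome 11 (28 peaks, interval of 0.527% to 1.14%) to 1.96% on chromosome 14 (64 peaks, interval of 1.51% to 2.49%). On unplaced scaffolds 9 of 427 such peaks were chosen, 2.11% (interval of 0.968% to 3.96%). Chromosomes 9 and 12, at 1.74% and 1.73%, were next to chromosome 14, and their intervals overlapped with it. Chosen peaks were placed along chromosomes like other peaks, with 68.8% against 66.0% in the outer 20% at either end.

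They were often near each other. Another chosen peak lay within 5000 bases of 16.9% of the chosen peaks on chromosomes (167 of 991, interval of 14.6% to 19.3%), against 1.16% of the other peaks with enough fragments, and within 100000 bases of 44.9% against 24.1%. The median distance to the nearest peak of any kind was 3505 bases for chosen and 3922.5 for other peaks. Peaks next to chosen peaks also had higher ratios. The median held-out ratio of other peaks was 1.17 within 5000 bases of a chosen peak (n = 880), 0.996 at 5000 to 20000 (n = 3199), 0.890 at 20000 to 100000 (n = 14242) and 0.875 beyond (n = 57754). Ratios of at least 2 made up 14.3%, 5.56%, 2.22% and 1.92% of these peaks.

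In 4 places, 4 chosen peaks followed each other with no other peak with enough fragments between them, and 773 chosen peaks had a chosen neighbor on neither side. On chromosome 20, the run from 1108123 to 1125910 included the peak of rank 2, and its plain ratios were 3.72, 7.78, 4.44 and 3.77 in order of position. The peak of rank 2 stood out within its run, with an interval of 6.39 to 9.47 that lay above those of all 3 others, which were 2.72 to 5.06, 3.09 to 6.34 and 3.15 to 4.51. On chromosome 13, the run from 15921844 to 15935638 was more even, with ratios of 4.31, 4.32, 3.97 and 3.34 and intervals that all overlapped. On chromosome 16, from 22875458 to 22901909, they were 3.20, 5.08, 4.27 and 3.81. On chromosome 8, from 13287928 to 13307834, they went from 4.19 and 4.28 to 2.79 and 2.27. The 2 peaks at the start of that run had intervals of 3.59 to 4.88 and 3.45 to 5.30, above those at its end, of 2.37 to 3.27 and 1.93 to 2.66.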

How the data were processed

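The seed nuclei were profiled with a Multiome assay in 1 RNA library and 1 ATAC library. Per the labels, the authors used bcl2fastq 2.20.0.422, Cell Ranger ARC 1.0 and Seurat 4.1.1. By the study's methods, reads were placed on Wm82.a2.v1 and the RNA was corrected for free transcripts with SoupX. For RNA the deposited file holds UMI counts after that correction, with no normalization. The deposited fragment list holds 113501985 fragments with the barcode of a nucleus, with counts of read pairs, and peaks were called once over the library. Doublets were not called.

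Peak levels count every fragment that shares at least 1 base with the peak, computed with Python 3.11.15, numpy 2.4.6 and scipy 1.17.1. The limit of 200 fragments was counted over all nuclei, so even-numbered nuclei entered that filter but not the ranking. Held-out ratios have 1 added to both levels, and plain ratios have nothing added. The scripts were tested on simulated data. The peaks, lists, classes and limits were chosen with earlier results of these data known. The named peaks are the 10 with the highest choosing ratio, the 5 with the most fragments, those next to the limit, and, chosen after values were seen, the lowest and highest held-out ratio and runs of 4. Bins of fragments, of UMIs within the group and of epidermis markers were also set after seeing the data. No genome or gene models of this build were used, so sequence, motifs and genes near the peaks were not analysed here. Of the 14 alternatives planned and 3 added, the closing section gives the effect.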

Additional observations from a re-analysis of the deposited data

How the results depend on the processing

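No alternative turned the direction of the pooled or the median held-out ratio. The pooled ratio of 3.56 became 3.15 with 5 added in the choosing ratio, 3.14 with at least 500 fragments per peak, 3.67 with no filter on fragments, 3.51 with even-numbered nuclei choosing and odd-numbered measuring, 3.59 when scaled to all fragments, 4.16 with 500 peaks, 2.97 with 2000 peaks, 3.51 with TT8 at 5 UMIs and 30 per 10000, 3.50 in nuclei with at least 2000 UMIs, 4.41 against nuclei without a TT8 UMI and 3.63 without the 5% of nuclei with the most fragments. Alternatives added after seeing the data gave 3.29 with 200 fragments counted in odd-numbered nuclei, 3.54 in nuclei with at least 3000 fragments and 3.6 without nuclei of more than 1 class. The median of 3.20 moved beyond the order-statistic interval of the median over peaks, which are not replicates, to 3.08 (5 added), 2.93 (500 fragments), 3.66 (500 peaks), 2.71 (2000 peaks), 3.83 (no TT8 UMI), 3.30 (without the deepest nuclei) and 3.02 (odd-numbered count). The number of peaks at 2 or more was 500 of 500 and 1819 of 2000 in the smaller and larger sets, against 3.51% of all peaks with enough fragments. In the larger set, 1 peak lay below 1. Under the other alternatives except thinning it was 953 to 996 of 1000, against 2.63% to 4.58% of all peaks with enough fragments. When each nucleus was thinned to 1000 peak fragments, only 7019 peaks still had 200 fragments. The 1000 chosen from them had a pooled ratio of 1.76, a median of 1.67 and 302 at 2 or more, against 5.23% of the 7019. A held-out ratio below 1 was found in 71 of these 1000 peaks. Only 52 of the 1000 were among the peaks described. The peaks described, measured in the thinned even-numbered nuclei, had a median of 3.38 and 863 at 2 or more, a count without a computed share over all peaks. Cut sites in place of overlapping fragments, and no BAN condition, left the pooled ratio within its interval.

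No paired analysis was possible because there is 1 library of each kind and both come from the same nuclei. Depth limits the order of single peaks: the first peak rests on 137 fragments in TT8-positive nuclei. Intervals and the split by barcode cover counting error within 1 library and say nothing of other seeds.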
